A study of Mus musculus with 6 samples.

Results

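The edges of long runs of closely listed adenosines were examined in a table of N6-methyladenosine (m6A) levels. The levels were measured by nanopore direct RNA sequencing in mouse liver cancer-initiating cells with and without Mthfd1l. Listed positions on chromosomes 1 to 19 were sorted and chained into a block wherever neighbours lay at most 100 bp apart. Blocks spanning at least 1000 bp were called long, and the listed positions within 200 bp of the first or last position of a long block were taken as its edges. The positions were chosen by coordinate alone, with no use of the m6A values. They numbered 5678 of 550314 listed positions on these chromosomes (1.03%), at 878 edges of 439 long blocks. The other 10867 positions of these blocks lay over 200 bp from both ends and were taken as the interior. A long block spanned 1156 bp in the median (1000 to 3665 bp) and held 34 listed positions in the median (21 to 164), and an edge held 6 (3 to 21).

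The cells were primary cultures of hepatocellular carcinoma-initiating cells (HCICs) from livers of male mice given the carcinogen DEN, either control mice or mice carrying MDM2 C305F and MDMX 3SA. MTH-D was the Mthfd1l knockout, made by lentiviral CRISPR-Cas9 and grown from single-cell colonies, and MTH-WT carried Cas9 with the empty LentiCRISPRv2 vector. There were 3 samples of each, numbered 1 to 3, and the labels do not say which HCIC line a number stands for. The knockout is not known to be equal in all of them: the study describes only a short deletion in the MTH-D line HCIC-2 and took the other lines for its own m6A comparison. Whether the samples numbered 2 are that line was not given, so the genotype difference at edges is also given for pairs 1 and 3 alone. Each number may stand for a line of its own, so the spread within a genotype holds differences between lines as well as between libraries. The table gives the fraction of reads called as m6A at 567664 distinct positions in each sample, and no read depth. The precision of a single fraction is therefore unknown, and no counting interval can be given.

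m6A is the most abundant internal modification of mRNA. It is placed by the METTL3-METTL14 methyltransferase, with S-adenosylmethionine as the methyl donor, on adenosines in the DRACH motif. It is known to be dense in long internal exons and in last exons near stop codons and sparse beside splice junctions, where exon junction complexes sit on the spliced RNA. MTHFD1L is the mitochondrial enzyme that releases formate, a one-carbon unit that feeds purine, thymidylate and methionine synthesis.

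The positions are numbered on GRCm39, and no genome or annotation of that build was used here. Strand, exon ends and genes were therefore not assigned to most blocks, and no sequence is shown. At 8 of the 439 long blocks, 91.5% to 100% of listed positions coincided base by base with exonic DRACH adenosines of GENCODE M21 on GRCm38, against at most 6.90% at the other 431 blocks. The gene model was read at these 8 blocks only, with no conversion between builds. The positions coincided when counted from 0. Counted from 1, at most 8.51% of them coincided at these blocks. Coordinates are printed here as listed. All 8 blocks lay inside a single exon. Only 2 of their 16 edges lay within 50 bp of an exon end, and 14 lay over 100 bp inside the exon. Each block was set against the annotated exon with the most overlap and, among equals, the longest. Ends of shorter exons in other transcripts were not counted, and this choice can place a block end further inside. Against the exons so chosen, a block end was more often the end of a run of listed positions than an exon end. The edges are called block edges here. Both edges that lay near an exon end were among the 5 with over 200 bp to the next listed position outside the block, and all 11 edges with a shorter gap outside lay over 100 bp inside the exon.

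Block edges carried more m6A than the rest of the table and slightly less than the interior of their own blocks. Mean m6A over the edge positions was 10.9%, 11.5% and 10.6% in MTH-WT 1, 2 and 3, and 10.2%, 12.0% and 10.3% in MTH-D 1, 2 and 3. The interior had 11.9%, 12.6% and 11.6% in MTH-WT and 11.2%, 13.1% and 11.2% in MTH-D, so every sample was lower at its edges than inside. Edges lay 1.01 ± 0.0728 percentage points below the interior (SD, n = 6 samples; lower in 6 of 6; two-sided exact sign-flip test, p = 0.03125, the smallest that 6 samples allow). All other listed positions of the table had 6.86% ± 0.546 (SD, n = 6), and edges lay 4.07 ± 0.190 points above them (higher in 6 of 6; exact sign-flip test, p = 0.03125). These tests set the difference against the spread between libraries read at the same positions, not against the spread between blocks. They also count same-numbered samples as independent, although these may be pairs. With each such pair averaged (replicate block), the 6 differences recomputed in this way kept their values, each with an exact p of 0.25, the smallest that 3 pairs allow. Over the 11 differences put to the exact sign-flip test, each Benjamini-Hochberg adjusted p was 0.03125. Each unadjusted p was already 0.03125, so the adjustment could not change it. The 11 differences share positions and samples and are not separate results.

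**Figure D1:**
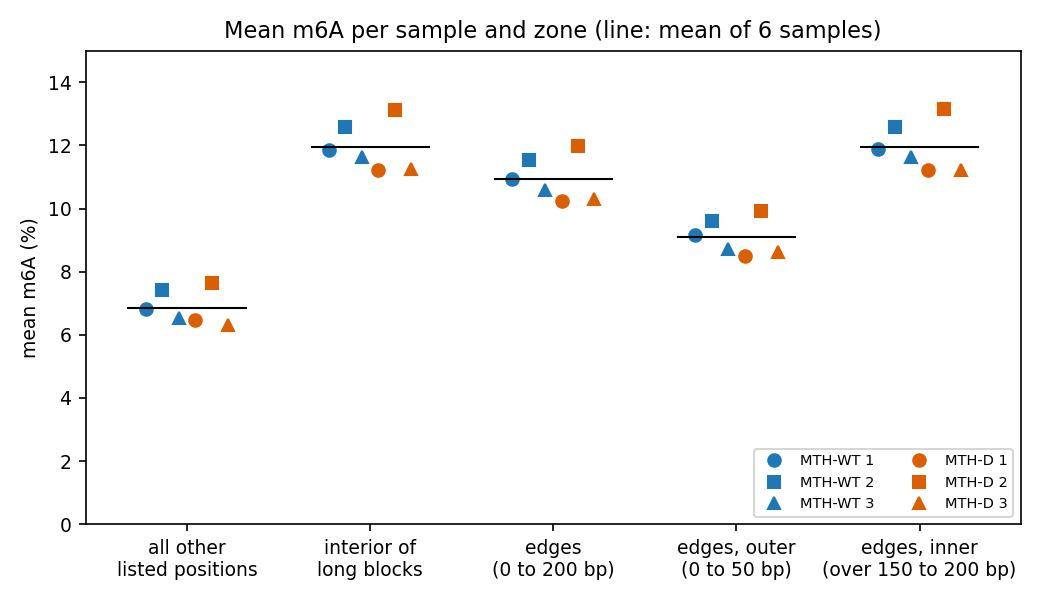
Mean m6A in percent of reads (vertical axis) for 5 sets of positions (horizontal axis), with 1 point per sample, colour for genotype, symbol for sample number and a line at the mean of the 6 samples. The edges sit between 10.2% and 12.0%, below the interior in each sample and above all other listed positions, and the outermost 50 bp sit at 9.09% in the mean.

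The difference from the interior was small beside the variety among blocks. The edges of a block averaged less m6A than its interior in 249 of 439 blocks (56.7%). The difference over blocks had a median of -0.430 points and a mean of -1.43 points with an SD of 8.17. Taken singly, 539 of 878 edges were below their interior. The difference over positions was -1.63 points with edges of 100 bp and -0.547 points over positions averaging at least 10%. Most member positions carried little m6A: 51.5% averaged under 2%, compared with 48.3% of interior positions and 66.4% of all listed positions. A mean of at least 10% was found at 1322 members (23.3%), at 25.4% of interior positions and at 14.3% of all listed positions. Near-complete sites, averaging at least 80%, made up 3.40% of members (193 positions), 3.32% of interior positions and 1.72% of all listed positions.

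m6A was lower in the outermost 50 bp of a block than further into the edge. In the outermost 50 bp it was 9.17%, 9.60% and 8.73% in MTH-WT and 8.49%, 9.94% and 8.61% in MTH-D. At over 150 to 200 bp it was 11.9%, 12.6% and 11.6% in MTH-WT and 11.2%, 13.1% and 11.2% in MTH-D, as high as in the interior. Each of the 6 samples was lower in the outer zone, by 2.86 ± 0.216 points (SD, n = 6; exact sign-flip test, p = 0.03125). In steps along the edge, the end position itself averaged 9.09% (n = 878 positions), positions at over 0 to 25 bp 8.59%, and those at over 25 to 50 bp 9.52%. From there the mean was 11.2% at over 50 to 75 bp and between 11.3% and 12.9% in every later step up to 200 bp. The limit of 200 bp is arbitrary: positions just inside it (over 190 to 200 bp) averaged 10.4%, and those just outside (over 200 to 210 bp) 13.7%. The same holds for the span: edges of the 91 blocks spanning less than 50 bp over the minimum averaged 9.04%, and those of the 112 blocks up to 50 bp short of it, which were not members, 10.03%. The outer minus inner difference depended on how blocks were drawn, and was -5.49 points with chaining up to 200 bp and -5.94 points for blocks of at least 2000 bp.

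The lower m6A at block ends was found mainly where the run of listed positions stopped for a long way. Of the 878 edges, 329 (37.5%) had over 200 bp to the next listed position outside (wide-gap edges), and 549 had over 100 to 200 bp (narrow-gap edges). This division was made after the values had been seen. Of the 439 blocks, 171 had no wide-gap edge, 207 had 1 and 61 had 2. At wide-gap edges the outer zone had 7.63%, 7.54% and 6.82% m6A in MTH-WT and 6.72%, 7.90% and 7.11% in MTH-D. The inner zone of the same edges had 14.3%, 15.3% and 13.9% in MTH-WT and 13.8%, 15.8% and 13.7% in MTH-D, so the zones did not overlap, and each sample of the outer zone lay below each of the inner zone.

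At narrow-gap edges the outer zone had 10.03%, 10.8% and 9.81% in MTH-WT and 9.49%, 11.1% and 9.45% in MTH-D. Their inner zone had 10.4%, 10.9% and 10.2% in MTH-WT and 9.65%, 11.5% and 9.73% in MTH-D. The zones thus overlapped across samples, although the outer zone was the lower one within each sample. The outer minus inner difference was -7.17 ± 0.535 points at wide-gap edges and -0.311 ± 0.133 points at narrow-gap edges (SD, n = 6). The difference between these differences was -6.86 ± 0.547 points (6 of 6 samples below 0; exact sign-flip test, p = 0.03125). The narrow-gap difference depended on the setting, with -2.99 points for blocks of at least 2000 bp, -0.733 without the end positions and -0.566 over positions averaging at least 10%; with the limit for a wide gap at 500 or 1000 bp it was -1.05 or -1.77 points. Over the whole edge the order was the other way. Wide-gap edges had 11.6%, 12.1% and 11.0% in MTH-WT and 10.7%, 12.6% and 10.9% in MTH-D, and narrow-gap edges 10.5%, 11.2% and 10.3% and 9.94%, 11.7% and 9.98%. Wide-gap edges were the higher in each of the 6 samples, a difference that was not tested.

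**Figure D2:**
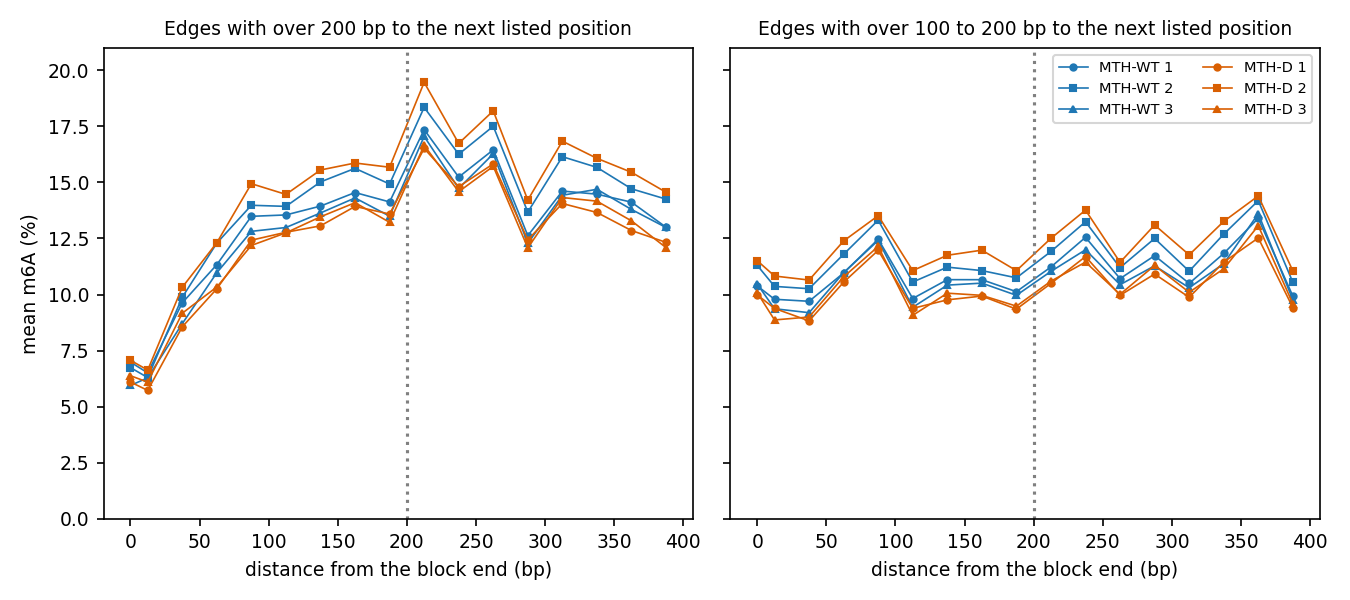
Mean m6A in percent of reads (vertical axis) against distance from the block end in bp (horizontal axis), 1 line per sample, for wide-gap edges (left) and narrow-gap edges (right), with the dotted line at 200 bp where edges stop. Within 200 bp of the end, wide-gap edges have 6.54% at the end position and 6.26% in the next step, and are higher from over 25 bp on, up to 14.7% at over 150 to 175 bp, while narrow-gap edges start at 10.6% and lie between 9.60% and 12.6%.

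Step by step, wide-gap edges averaged 6.54% at the end position (n = 329 positions), 6.26% at over 0 to 25 bp, 9.38% at over 25 to 50 bp, 11.2% at over 50 to 75 bp and 13.3% at over 75 to 100 bp. Further in they lay between 13.4% and 14.7%, and the first interior step, over 200 to 225 bp, had 17.6%. Narrow-gap edges had 10.6% at the end position (n = 549 positions) and no such slope, with their highest step, 12.6%, at over 75 to 100 bp and 9.89% in the step after it. Strong sites differed in number along with the means. Positions averaging at least 50% made up 27 of 686 outer positions (3.94%) and 51 of 484 inner positions (10.5%) at wide-gap edges. At narrow-gap edges they made up 74 of 1224 outer positions (6.05%) and 59 of 789 inner positions (7.48%). The median position had 1.49% in the outer and 3.07% in the inner zone of wide-gap edges, and 1.67% and 1.77% at narrow-gap edges.

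The size of the gap beyond 200 bp did not order the difference. The 89 edges with a gap of over 200 to 500 bp had 6.90% in the outer and 12.5% in the inner zone, a difference of -5.57 ± 0.412 points (SD, n = 6). The 32 edges with over 500 to 1000 bp had 4.63% and 19.3%, a difference of -14.7 ± 0.996 points, from only 66 outer and 56 inner positions. The 208 edges with over 1000 bp had 7.91% and 14.3%, a difference of -6.43 ± 0.575 points. Below 200 bp, the 132 edges with a gap of over 150 to 200 bp differed by -0.911 ± 0.275 points and the 417 with over 100 to 150 bp by -0.149 ± 0.114 points. All 6 samples were below 0 in each of the 5 classes.

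**Figure D3:**
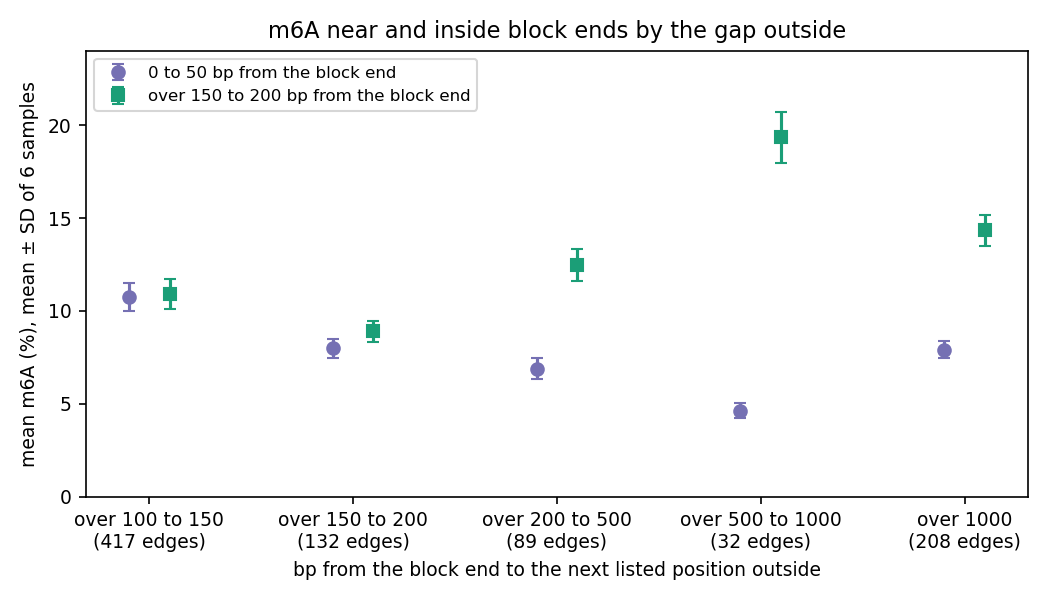
Mean m6A in percent of reads (vertical axis) in the outer zone (circles) and inner zone (squares) of edges grouped by the distance to the next listed position outside the block (horizontal axis), as mean ± SD of 6 samples. The zones lie close together up to 150 bp, at 10.8% and 10.9%, and apart in the 3 classes over 200 bp, most of all at over 500 to 1000 bp with 4.63% and 19.3%.

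The means stood for a tendency, not for each edge. Of the 283 wide-gap edges with positions in both zones, 189 (66.8%) had less m6A in the outer zone, and the difference had a median of -1.62 points, a mean of -8.20 points and an SD over edges of 23.6. Of the 456 narrow-gap edges with both zones, 205 (45.0%) were lower in the outer zone, with a median of 0.202 points, a mean of 0.0781 points and an SD of 20.7. The mean over edges and the mean over positions thus had opposite signs at narrow-gap edges, and their small difference by position is not a difference that holds edge by edge. A single strong site set much of an edge: the top position gave 48.7% of the edge's summed m6A in the median, and over 50% in 419 of 878 edges.

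Blocks spanning 500 to under 1000 bp, which gave no members, showed the same pattern at their own ends. There were 3872 of them. Their wide-gap edges had 7.47% ± 0.536 in the outer and 14.2% ± 1.09 in the inner zone, and their narrow-gap edges 9.77% ± 0.763 and 10.1% ± 0.786 (SD, n = 6). The wide-gap difference was -6.78 ± 0.556 points there. In the long blocks it was larger by a further -0.392 ± 0.172 points (6 of 6 samples, exact sign-flip test, p = 0.03125). That test sets 2 different sets of edges against the spread between libraries, not between edges. Over the 283 wide-gap edges of long blocks with both zones, the SD over edges was 23.6 points. It therefore does not show that ends of long blocks differ from ends of shorter ones. The low m6A next to a wide gap was therefore not particular to long blocks.

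With no strand assigned, the ends of a block could be told apart only by coordinate. Edges at the low-coordinate end had 10.4% ± 0.729 and those at the high-coordinate end 11.4% ± 0.682 (SD, n = 6), a difference of -0.992 ± 0.0737 points (6 of 6 samples; exact sign-flip test, p = 0.03125). The direction turned with the drawing of blocks, to 0.155 points with chaining up to 200 bp and 1.51 points for blocks of at least 2000 bp. It was -4.41 points over positions averaging at least 10%, and the low end was the higher one in 202 of 439 blocks. The means at both ends of a block had a Pearson r of 0.267 and a Spearman rho of 0.412 across 439 blocks, given as a description, since both were read in the same 6 libraries.

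Edges ranged widely in level. Their means over 6 samples ran from 0.167% to 64.3%, with a median of 6.19% and quartiles of 1.66% and 17.2%; 257 averaged under 2% and 74 at least 30%. Edge means were alike between libraries, with a Pearson r of 0.974 to 0.985 across the 878 edges in the 15 pairs of samples, as a description across edges that share positions. The most methylated edge with at least 5 listed positions was the high-coordinate edge at chr7:127207525-127207724 (GRCm39). It had 62.5%, 69.3% and 62.4% in MTH-WT and 65.5%, 66.6% and 59.6% in MTH-D over 9 positions, while the interior of its block averaged 10.7%. Its top site was the end position itself, at 90.7%. The low-coordinate edge at chr2:163457634-163457820 averaged 55.8% and the high-coordinate edge at chr3:152492807-152492998 averaged 55.5%. Of the 10 most methylated edges, 8 were narrow-gap edges, against 549 of all 878 edges. The wide-gap edges among them were chr1:159905856-159906006 with 51.3% and chr11:113579779-113579956 with 49.0%, followed by gaps of 1560 and 2681 bp. These 10 were picked for their level, so their levels are a description.

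At the 8 blocks where the gene model could be read, all edges of blocks in noncoding stretches of last exons were low. Those of mostly coding blocks, some of them also in last exons, were higher and more varied. In 4 last-exon blocks with 0% of positions in coding sequence, interiors averaged 0.694% to 2.63%. These lay in Rab18, a small GTPase, Manea, a Golgi endo-alpha-mannosidase, Ptbp3, a polypyrimidine tract-binding splicing regulator, and Aasdhppt, a phosphopantetheinyl transferase. Their 8 edges averaged between 0.167% and 3.40%. The Manea 3′ edge, the lowest of all, had 0.427%, 0% and 0.0950% in MTH-WT and 0.317%, 0% and 0.165% in MTH-D. The other 4 blocks were 89.5% to 98.1% coding and had interiors of 17.3% to 37.2%. These 8 blocks were found by coordinate and are too few for a test.

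Topors, a ubiquitin and SUMO ligase, had 39.5%, 42.9% and 40.0% in MTH-WT and 40.7%, 45.7% and 38.0% in MTH-D at its 3′ edge, 469 bp inside the last exon, and one site there averaged 96.5%. Its 5′ edge averaged 15.9%. Rbm12b2, which encodes a protein with RNA-binding motifs, went the other way, with 20.1% at the 5′ edge and 5.25% at the 3′ edge beside an interior of 37.2%.

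Both edges near an exon end were 5′ ends of coding internal exons, and both had less m6A in the outer than in the inner zone. In E130308A19Rik, exon 2 of 3, the 5′ edge began 5 bp inside the exon and had 0.438% in the outer and 18.6% in the inner zone. In Mios, exon 3 of 12, which encodes a GATOR2 subunit of amino acid sensing, it began 7 bp inside and had 16.0% and 31.1%. These edges held only 5 listed positions in E130308A19Rik and 6 in Mios, so each zone mean rested on few sites. The strongest site of the Mios 5′ edge, at 40.4%, lay 10 bp from the block end, in the outer zone. The Mios edge had 26.4%, 22.6% and 23.6% in MTH-WT and 22.5%, 28.7% and 18.3% in MTH-D, so the genotypes overlapped. The 3′ edges of these exons had more m6A in the outer zone, with 10.8% against 2.25% in E130308A19Rik (175 bp inside the exon end) and 23.3% against 2.13% in Mios (248 bp inside).

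The other comparison of the design was knockout against wildtype, which asked whether m6A changes when Mthfd1l is lost. The level of Mthfd1l itself cannot be read from these fractions. Edge m6A was 11.0% ± 0.480 in MTH-WT and 10.8% ± 0.994 in MTH-D (SD, n = 3 each), a difference of -0.173 points (two-sided exact permutation test, p = 0.80; 3 against 3 cannot go below 0.10). The groups overlapped, since MTH-D 2 was the highest and MTH-D 1 the lowest of the 6 samples. Same-numbered samples differed by -0.690, 0.454 and -0.282 points (MTH-D minus MTH-WT for 1, 2 and 3). From the samples numbered 1 and 3 alone the difference was -0.486 points (exact permutation test, p = 0.333, the smallest that 2 against 2 allow). The sign of the mean difference rested on single libraries: it was 0.0873 points without MTH-WT 2, 0.133 without MTH-D 1 and 0.0946 without MTH-D 3.

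The shape of the edge differed by less than the spread between samples. The edge minus interior difference was -0.9999 ± 0.0577 points in MTH-WT and -1.02 ± 0.0980 in MTH-D (SD, n = 3 each; exact permutation test, p = 1.00). The outer minus inner difference at wide-gap edges was -7.18 ± 0.524 points in MTH-WT and -7.16 ± 0.664 in MTH-D (SD, n = 3 each; exact permutation test, p = 0.90). MTH-D had the lower mean in each of the 9 steps along the edge, by 0.121 to 0.220 points, and these steps share the same 6 libraries. Over the 10 genotype differences tested, every Benjamini-Hochberg adjusted p was 1.00 (exact permutation tests).

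**Figure D4:**
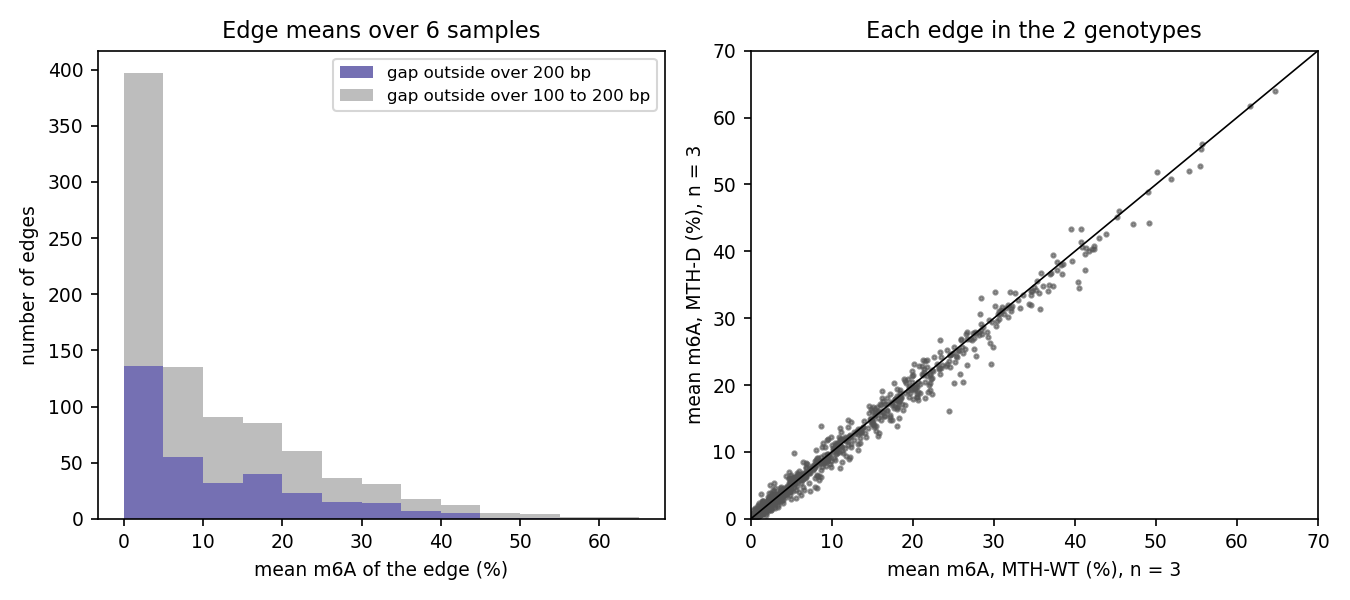
Left, number of edges (vertical axis) by mean m6A in percent over the 6 samples (horizontal axis, steps of 5 points), stacked by gap outside. Right, each of the 878 edges by its mean m6A in percent in MTH-WT (horizontal axis, n = 3) and MTH-D (vertical axis, n = 3) with the line of equal values; edges lie along the line, with a median difference of -0.0696 points.

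No single position or edge passed the test between genotypes. With limma across all 567664 positions, 0 of 5678 members had an adjusted p under 0.05, against a background of 0% of all positions; 188 members (3.31%) had an unadjusted p under 0.05, against 3.22% of all positions. Of these, 95 were lower and 93 higher in MTH-D, against 1.55% and 1.67% of all positions. With each edge and each interior as 1 unit, limma called 0 of 1317 segments (0%) after adjustment. At an unadjusted p under 0.05 there were 26 of 878 edges, against 2.35% of all segments, with 13 edges lower and 13 higher in MTH-D, against 1.14% and 1.21%. Among the 1322 members averaging at least 10%, 182 (13.8%) were lower in MTH-D by 5 points or more and 112 (8.47%) higher, against 15.2% and 9.27% of all such positions. A difference of that size was rarer over whole edges: of 346 edges averaging at least 10%, 5 were lower and 1 was higher, against 0.88% and 0.176% of such segments. By edge, 123 were lower in MTH-D in all 3 same-numbered pairs and 96 higher, against 13.7% and 10.9% of segments. The groups did not overlap at 28 edges lower and 32 higher in MTH-D, against 3.04% of segments in either direction. The pairs did not move together: the knockout sample had the lower value at 65.0% of edges in pair 1, at 40.3% in pair 2 and at 53.1% in pair 3. Interiors split the same way, with the knockout sample lower at 69.7%, 32.3% and 58.3% of them.

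The edge with the largest genotype difference among those of 1 sign in all pairs was the high-coordinate edge at chr16:91413449-91413626 (GRCm39). It had 24.8%, 22.6% and 26.0% in MTH-WT and 14.6%, 19.1% and 14.8% in MTH-D, with no overlap, a difference of -8.31 points (limma adjusted p = 0.998). The high-coordinate edge at chr10:128647917-128648109 followed with 43.4%, 43.0% and 35.3% in MTH-WT and 33.9%, 37.7% and 31.7% in MTH-D, where MTH-D 2 overlapped MTH-WT 3, a difference of -6.11 points (limma adjusted p = 0.998). The low-coordinate edge at chr19:8991337-8991532 was the one higher in MTH-D among the 10 largest, with 23.6%, 25.2% and 21.1% in MTH-WT and 26.8%, 31.1% and 22.5% in MTH-D, a difference of 3.49 points (limma adjusted p = 0.998). These 10 were picked for their differences, so the sizes are a description, and each of them had an adjusted p of 0.998 in limma.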

How the data were processed

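m6A was measured by direct RNA sequencing (SQK-RNA004, 1 PromethION flow cell per sample, up to 72 h, from 1000 ng total RNA) in 3 MTH-WT and 3 MTH-D samples, all given as 1 batch. The authors deposited 1 table of m6A fractions (0 to 1) per position and sample, without coverage; the submitters' processing notes name minimap2 2.26, SAMtools and GRCm39. The modification caller, its threshold and any depth filter are not given in the sources used here, and a fraction from few reads counts here as much as one from many. Values of exactly 0 made up 24.3% of member values, and 21.4% to 27.2% in each step along the edge.

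Fractions were multiplied to percent, and the 3 repeated rows of the 567667 were averaged. Blocks, edges and zones were computed with pandas 2.3.3. Means were taken over positions per sample and tested over samples with exact sign-flip or permutation tests (written with numpy 2.4.6), with Benjamini-Hochberg adjustment. Nothing in the labels says that samples came from separate cultures of 1 line, so p-values measure the spread between these samples. Positions and segments (edges or interiors) were tested with limma 3.58.1 on a log2 odds scale with 1 point added, with no filter. On simulated segments limma recovered 77.5% of 200 changed by 1 log2 unit and 95.0% of those changed by 2; on simulated positions it recovered 0% at 2 units and 32.0% at 4. Whether limma recovers losses of m6A as well as gains, or does so at edges with little m6A, was not tested. Deviations from the group means of same-numbered samples correlated by 0.164, 0.223 and 0.133, each over 0.1. These correlations were taken over all listed positions averaging at least 10%, not over edges. Same-numbered samples were therefore treated as possible pairs. Differently numbered samples were not correlated for comparison, so these values do not establish a pairing. The main tests do not use the pairing, and the fits with a replicate block are alternatives.

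The members and lists were chosen with earlier results of these data known, and the division by gap outside the block was made after seeing the values. Named edges held at least 5 positions: the 10 with the highest mean, and the 10 with the largest genotype difference among those of 1 sign in all pairs. The 8 gene names from GENCODE M21 were added to this rule after the positions had been matched; edges of Snai1, B2m, Socs2, Mthfd1l and the listed m6A, exon junction and one-carbon genes were left out for want of an annotation of the build, and cell type markers cannot be read from fractions. Alternatives were other chain gaps, spans, edge widths, gap limits and offsets, means over blocks, positions averaging at least 10%, the samples numbered 1 and 3, a replicate block and leaving out each sample. Differences between splice junctions and transcript ends, and weighting by sequence context, were not analysed here.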

Additional observations from a re-analysis of the deposited data

Results flagged for a closer look

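At block edges, MTH-D 2 lay 0.454 points above MTH-WT 2, while the knockout minus wildtype difference was -0.690 points in pair 1 and -0.282 points in pair 3. It is listed here because 1 pair moved opposite to the others; the difference between pairs was not tested. The interior of the same blocks had the same signs, with -0.622, 0.545 and -0.382 points. So did all other listed positions of the table. They had 6.80%, 7.41% and 6.53% in MTH-WT 1, 2 and 3, and 6.47%, 7.64% and 6.30% in MTH-D 1, 2 and 3. The opposite sign of pair 2 was thus not particular to edges.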

How the results depend on the processing

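Leaving out each of the 6 samples gave -1.03 to -0.987 points for edge minus interior, -2.91 to -2.79 for outer minus inner, -1.02 to -0.978 for low minus high end, -7.29 to -7.03 and -0.341 to -0.281 for outer minus inner at wide- and narrow-gap edges, and -6.98 to -6.71 for their contrast; 5 samples cannot go below p = 0.0625 in the exact sign-flip test. The genotype difference at edges, -0.173 points, was -0.752 over positions averaging at least 10%, -0.486 from samples numbered 1 and 3 and -0.0501 for spans of at least 2000 bp. Without 1 sample it ranged from -0.746 to 0.133 at edges, -0.0638 to 0.0330 for edge minus interior, and -0.274 to 0.383 for wide-gap outer minus inner, with 0 positions and 0 segments called by limma in each. With samples numbered 1 and 3 only, these 6 differences were -0.975, -2.74, -1.02, -6.85, -0.312 and -6.54 (exact p = 0.125, the smallest that 4 samples allow), and the genotype difference in edge minus interior turned to 0.0158. With a replicate block that averages each same-numbered pair, they were -1.01, -2.86, -0.992, -7.17, -0.311 and -6.86 (exact p = 0.25, the smallest that 3 pairs allow), and limma still called 0 positions (17303 at an unadjusted p under 0.05, against 18299 without the block) and 0 segments (66 against 31). Low minus high end reversed to 0.155 with chaining up to 200 bp and to 1.51 for spans of at least 2000 bp. The genotype difference in wide-gap outer minus inner, 0.0268, reversed to -0.820 for spans of at least 2000 bp, -0.0194 as a mean over blocks, -0.243 over positions averaging at least 10% and -0.0124 without the end positions. The causes were not tested. Chaining up to 50 bp left 0 long blocks. Read depth, which would limit each fraction, is unknown.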

Other observations

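Values of exactly 0 were unevenly spread along the edges. They made up 28.5% of values in the outer and 21.01% in the inner zone of wide-gap edges, and 24.5% and 26.4% at narrow-gap edges. Their part in the difference between zones was not tested.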
